A study of Mus musculus with 11 samples.

Results

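MHC class I and peptide loading genes were examined in precursor exhausted CD8+ T cells from mouse tumors, as 10 named rows of a count table of 32469 genes. The rows were B2m, the heavy chain genes H2-K1, H2-D1, H2-T23 and H2-Q7, the peptide transporter genes Tap1 and Tap2, the tapasin gene Tapbp, the trimming peptidase gene Erap1 and the transactivator gene Nlrc5. They were chosen by name for their place in this pathway, with earlier results of these data known, and no threshold on their values was used. All 10 passed the filter on low counts, which kept 6949 genes.

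MHC class I molecules carry short peptides from inside the cell to its surface, where CD8+ T cells read them. Each molecule pairs a heavy chain with beta-2-microglobulin, and is loaded in the endoplasmic reticulum with peptides that the TAP transporter brings in, with tapasin holding the empty molecule to TAP and ERAP1 trimming the peptides. NLRC5 is a transactivator of class I genes, and interferons raise many genes of the pathway. T cells carry class I molecules on their own surface as well as recognising them on others, and the libraries were made from sorted T cells.

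Lewis lung carcinoma (LLC), a mouse lung tumor line, was grown under the skin of both flanks of wild-type C57BL/6 mice, which were female and 8 weeks old. In the aLAG3 group, an antibody that blocks the inhibitory receptor LAG-3 (clone C9B7W) was given into the peritoneum at 200 µg a mouse, once on day 14 and again on day 16 of tumor growth, and the untreated group received no treatment. The series text places tumor excision on days 14 and 21, while the study's legend and methods for this experiment name an earlier second day. That day falls after both doses, and the legend describes the tumors as resected after the start of treatment. CD8+ T cells positive for PD-1 and Ly108 and negative for TIM-3 and CD62L were sorted, and polyadenylated RNA was sequenced in 5 untreated and 6 aLAG3 libraries, which the study's legend counts as mice. Libraries are called by the numbers in their labels, 1 to 5 for untreated and 6 to 11 for aLAG3.

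The libraries held 313524 to 1901374 counts, so that 3 counts, the floor used for detection, corresponded to 1.58 to 9.57 CPM (read counts scaled to a common library size). Each library carried 1 of 3 primer barcodes, and barcode 9 alone was shared by 3 libraries of each group. Barcode 8 was carried by 1 untreated and 3 aLAG3 libraries and barcode 10 by 1 untreated library. The titles also carry an index number, whose meaning the labels do not give. Untreated libraries 2 and 3 and aLAG3 library 10 share index 37, and untreated libraries 4 and 5 share index 36, and no other index is shared, so that a comparison within an index sets aLAG3 library 10 against untreated libraries 2 and 3. The 4 barcode 8 libraries and the barcode 10 library were all shallower than the 6 barcode 9 libraries. The 6 CD8 T cell marker genes summed to 4846 to 5388 CPM of total counts in every library. Of 13 myeloid markers, S100a8 and S100a9 had no count in any library, while the list summed to 49.7 to 175.4 CPM. Of 6 NK cell markers, Klra8 had no count, while the list summed to 115.9 to 168.2 CPM. Prf1 led that sum, with a mean of 122.5 CPM in untreated and 121.4 CPM in aLAG3. Over all libraries together, Ncr1 had 1 count, Klrb1c 13 and Klra4 5.

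The 4 heavy chain genes are close copies of each other, and their sequences show how far a read can tell them apart. In exon 2, which encodes the first domain of the peptide groove, H2-K1 and H2-D1 were 91.1% identical over 270 bases, and H2-K1 was 87.8% identical to H2-Q7 and 86.7% to H2-T23. The first 90 bases of exon 2 are shown for the 4 genes, because it covers part of the groove, with capitals for the bases that differ from H2-K1 (GENCODE M21, GRCm38).
H2-K1 (chr17:33999914-34000003, minus strand): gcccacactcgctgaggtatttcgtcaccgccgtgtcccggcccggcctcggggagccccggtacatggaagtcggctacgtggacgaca
H2-D1 (chr17:35263379-35263468, plus strand): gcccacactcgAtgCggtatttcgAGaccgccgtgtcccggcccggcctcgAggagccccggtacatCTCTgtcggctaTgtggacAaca
H2-Q7 (chr17:35439452-35439541, plus strand): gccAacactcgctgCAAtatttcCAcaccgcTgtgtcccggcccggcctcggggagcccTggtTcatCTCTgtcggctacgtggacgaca
H2-T23 (chr17:36032333-36032422, minus strand): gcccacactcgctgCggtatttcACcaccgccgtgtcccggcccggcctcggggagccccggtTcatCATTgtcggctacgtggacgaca

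Exon 4, which encodes the membrane-proximal domain bound by CD8 and beta-2-microglobulin, was closer between the genes. H2-K1 was 96.0% identical to H2-D1 and 95.3% to H2-T23 over 276 bases, and H2-D1 and H2-T23 shared an unbroken run of 145 bases. H2-Q7 has a longer exon 4, of 285 bases, and was not compared over its length. The first 90 bases of exon 4 are shown in the same way, and the later part of the stretch is lower case in all 4 genes.
H2-K1 (chr17:33997471-33997560, minus strand): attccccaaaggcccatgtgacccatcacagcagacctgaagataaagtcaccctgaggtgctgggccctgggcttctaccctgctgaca
H2-D1 (chr17:35265784-35265873, plus strand): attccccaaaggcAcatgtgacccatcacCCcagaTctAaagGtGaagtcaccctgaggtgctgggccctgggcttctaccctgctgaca
H2-Q7 (chr17:35442267-35442356, plus strand): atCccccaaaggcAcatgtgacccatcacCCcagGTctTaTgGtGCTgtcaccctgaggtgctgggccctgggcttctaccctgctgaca
H2-T23 (chr17:36031008-36031097, minus strand): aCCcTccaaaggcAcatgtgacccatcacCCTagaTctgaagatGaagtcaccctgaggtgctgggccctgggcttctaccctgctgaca

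Over whole coding transcripts, 6.87% of the distinct 50-base stretches of H2-K1 also occurred in transcripts of other genes, compared with 13.9% for H2-D1, 29.8% for H2-T23 and 34.9% for H2-Q7. B2m and Nlrc5 shared none. Tap1 shared 6.27% and overlaps Psmb9, Tap2 shared 12.1%, and Erap1 shared 13.7% with the neighbouring gene Cast. Tapbp shared 22.4%, with 417 other genes, and most of this lay in the overlapping gene Gm19412, which held 18.9% of its stretches. How reads that fit several genes were counted is not stated, so the division of counts between H2-K1, H2-D1, H2-Q7 and H2-T23 is uncertain, as are the values of overlapping genes.

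Class I promoters carry a kappa B site called enhancer A, an interferon-responsive element, and a module that the NLRC5 complex uses, which includes an X2 box and a CCAAT-type Y box. RefSeq promoter windows of 250 bases before to 50 after the start (GRCm38.p6) were at hand for 8 of the 10 genes. The stretches from 150 to 6 bases before the start are shown for H2-K1, H2-Q7 and B2m, whose stretches hold no annotated exon, because Nlrc5 had the largest fitted change of the 10 genes. Capitals mark GGGATTCCC (enhancer A), AGAAGTGAA (the interferon consensus sequence of class I promoters), a pair of GAAA words set 2 bases apart (the core of an interferon-stimulated response element), TGACG (the X2 core) and CCAAT, each on either strand.
H2-K1 (chr17:34000353-34000497, minus strand): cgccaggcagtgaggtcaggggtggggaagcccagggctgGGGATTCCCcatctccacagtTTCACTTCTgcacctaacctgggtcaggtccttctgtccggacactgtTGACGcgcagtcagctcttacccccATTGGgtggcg
H2-Q7 (chr17:35439005-35439149, plus strand): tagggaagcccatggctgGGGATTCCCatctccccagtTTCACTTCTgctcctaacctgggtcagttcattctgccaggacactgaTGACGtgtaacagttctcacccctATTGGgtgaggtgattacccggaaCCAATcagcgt
B2m (chr2:122147537-122147681, plus strand): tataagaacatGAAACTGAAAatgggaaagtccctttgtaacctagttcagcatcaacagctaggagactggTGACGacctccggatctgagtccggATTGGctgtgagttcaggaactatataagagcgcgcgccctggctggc

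Enhancer A was found in the windows of H2-K1, H2-D1 and H2-Q7 and in 0.353% of all 32851 windows, and AGAAGTGAA was found in the same 3 genes and in 0.447% of windows. The pair of GAAA words was found in B2m, H2-T23 and Erap1 and in 3.44% of windows. TGACG was found in 5 of the 8 genes and in 20.8% of windows, and CCAAT in 7 of the 8 and in 37.4% of windows. These matches describe letters in the windows and not binding.

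No gene of the pathway was called different between the groups, and the fitted changes were small for the genes with the highest levels. Of 6949 tested genes, 0% (0 genes) passed an adjusted p of 0.05 by edgeR's quasi-likelihood test, and 0 of the 10 pathway genes did. At an unadjusted p of 0.05, 3.71% of tested genes (258) and 0 of the 10 passed. DESeq2 and edgeR's likelihood ratio test also gave 0 adjusted calls, with 163 and 307 genes at an unadjusted p of 0.05. The groups did not overlap in 0.475% of tested genes and in 0 of the 10. By the sign of the fitted change, 4 of the 10 were higher and 6 lower in aLAG3, of which H2-T23 was within 0.0045 of 0 and had the lower mean CPM in aLAG3, with a median log2 fold change of −0.0099 beside 0.0040 over all tested genes. Of the settings tried, 2 changed the count of calls. Without the filter on low counts, over 24024 genes, 7 genes were called and B2m was 1 of them. With the title index as a covariate, 16 genes were called and H2-K1 was 1 of them. In bulk samples, a changed share of cells and a changed amount of RNA per cell cannot be told apart.

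**Figure D1:**
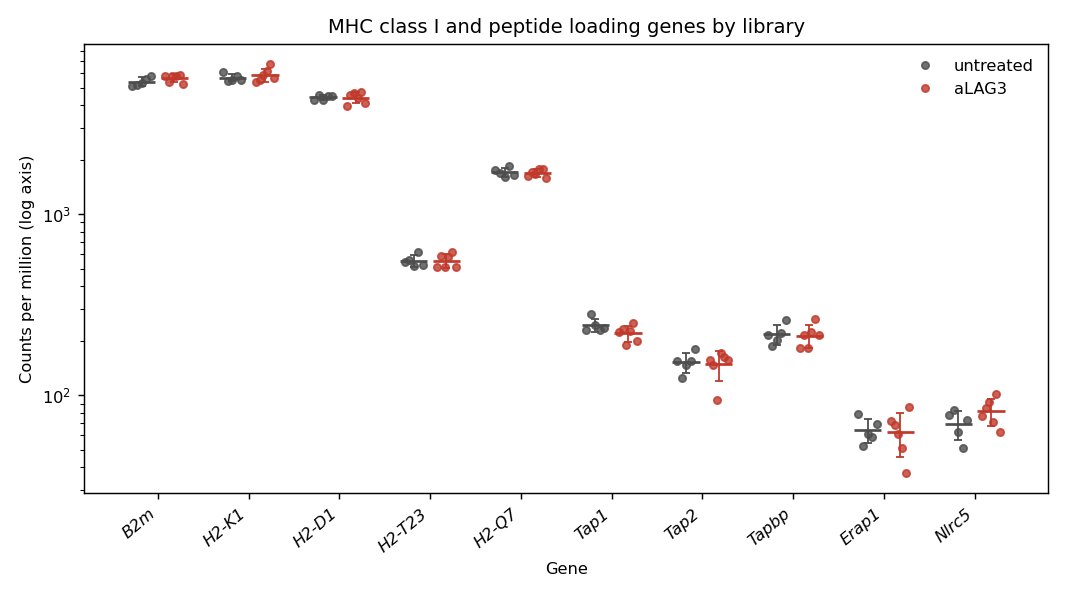
CPM (log axis) of each of the 10 genes in the 5 untreated (grey) and 6 aLAG3 (red) libraries, with the group mean (line) and SD (bars). The groups overlap in all 10 genes, and the levels run from H2-K1 and B2m at the top to Nlrc5 and Erap1 at the bottom.

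The levels of the pathway genes were far apart. Divided by transcript length, B2m was the highest at 6424 ± 344 CPM per kilobase (SD, n = 11), followed by H2-K1 at 3571 ± 245, H2-D1 at 2097 ± 114, H2-Q7 at 1132 ± 57.3 and H2-T23 at 375.4 ± 29.1. In each of these steps the higher gene was above the next in 11 of 11 libraries. Tap1 (78.1 ± 8.21 CPM per kilobase) and Tapbp (74.2 ± 9.60) followed, and Tap1 was above Tapbp in only 7 of 11 libraries. Tap2 was at 43.6 ± 6.72, and Erap1 (11.2 ± 2.41) and Nlrc5 (10.0 ± 1.88) were the lowest, with Erap1 above Nlrc5 in 7 of 11. Without that division, mean CPM put H2-K1 (5781) above B2m (5525) and Nlrc5 (76.0) above Erap1 (63.3). In the study's primer list the barcode adjoins the sequence added at the template-switching step, at the end that copies the start of the transcript. How reads spread along transcripts was not examined, and division by length may not apply, so the order of levels between genes is approximate.

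B2m encodes beta-2-microglobulin, the light chain shared by all class I molecules. It was at 5098, 5171, 5308, 5568 and 5807 CPM in untreated libraries 1 to 5 and at 5804, 5389, 5752, 5768, 5891 and 5214 CPM in aLAG3 libraries 6 to 11. Only aLAG3 library 10 was above all untreated libraries, and untreated library 5 was above 5 of the 6 aLAG3 libraries. The fitted log2 fold change was 0.06 with an SE of 0.04 (edgeR quasi-likelihood, adjusted p = 0.9996), and its 95% interval ran from 0.987-fold to 1.11-fold. Without the filter on low counts the same test gave 0.09 with an adjusted p of 0.0443, a call that stood in none of the other settings tried, whose reason was not tested. The exact permutation test on log2 CPM gave p = 0.184 (two-sided, 462 splits).

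H2-K1 and H2-D1 encode the classical heavy chains of this strain, which present peptides to CD8+ T cells. H2-K1 was at 6061, 5458, 5484, 5819 and 5534 CPM in the untreated libraries and at 5385, 5518, 5837, 6147, 6706 and 5642 CPM in the aLAG3 libraries. Both the lowest and the highest value were in aLAG3, in libraries 6 and 10. The fitted log2 fold change of H2-K1 was 0.04 with an SE of 0.05 (adjusted p = 0.9996), an interval of 0.963-fold to 1.10-fold. With the title index as a covariate, a fit in which the treatment rests on library 10 against libraries 2 and 3, it was 0.29 (adjusted p = 0.0247 by edgeR), and without library 10, in the fit with no covariate, it was 0.0026. H2-D1 was at 4291, 4535, 4272, 4508 and 4478 CPM in untreated libraries and at 3960, 4539, 4686, 4391, 4741 and 4087 CPM in aLAG3 libraries. Its untreated values lay inside the aLAG3 range, and the SD was 125.3 CPM in untreated and 319.2 CPM in aLAG3. The fitted log2 fold change of H2-D1 was −0.0054 with an SE of 0.05 (adjusted p = 0.9996), an interval of 0.933-fold to 1.06-fold.

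H2-Q7 and H2-T23 encode nonclassical heavy chains, and the H2-T23 product, Qa-1, is read by the inhibitory receptor NKG2A. H2-Q7 ranged from 1597 to 1849 CPM in untreated and from 1578 to 1775 CPM in aLAG3, and H2-T23 from 518.8 to 619.8 and from 507.3 to 615.5 CPM. The 2 ranges of each gene almost coincided. Their fitted log2 fold changes were −0.01 with an SE of 0.06 for H2-Q7 and 0.0045 with an SE of 0.08 for H2-T23 (adjusted p = 0.9996 for both). Summed over 21 class I heavy chain rows, where the division of reads among those rows does not enter, the log2 fold change was 0.0065. No SE was obtained for this sum, and reads shared with genes outside those rows remain uncertain. H2-K1 took 37.7% to 41% of those counts in a library, H2-D1 28.7% to 31.5%, H2-Q7 10.9% to 12.3% and H2-T23 3.41% to 4.13%.

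Tap1 and Tap2 encode the subunits of the TAP transporter. Tap1 was at 229.1, 280.2, 243.8, 227.9 and 236.3 CPM in untreated libraries and at 223.0, 231.8, 188.7, 226.0, 250.2 and 199.2 CPM in aLAG3 libraries. Of the aLAG3 libraries, 4 were below all untreated ones. The fitted log2 fold change of Tap1 was −0.13 with an SE of 0.10 (adjusted p = 0.9996), an interval of 0.796-fold to 1.05-fold, and the exact permutation p was 0.123, the smallest of the 10 genes (0.613 adjusted over the 10). The fitted log2 fold change of Tap1 was −0.06 within barcode 9 and −0.07 with the barcode as a covariate. Tap2 was at 154.4, 125.2, 147.7, 153.7 and 180.1 CPM in untreated and at 156.6, 147.2, 94.4, 171.3, 162.3 and 156.3 CPM in aLAG3 libraries. Library 8 was the low one, with 40 counts, and the fitted log2 fold change of Tap2 was −0.04 with an SE of 0.12 (adjusted p = 0.9996) and 0.04 without that library.

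Tapbp encodes tapasin, which bridges TAP and the empty class I molecule, and Erap1 encodes the peptidase that shortens peptides before loading. Tapbp ranged from 187.9 to 260.7 CPM in untreated and from 181.3 to 263.8 CPM in aLAG3, with a log2 fold change of −0.04 and an SE of 0.11. Erap1 ranged from 52.7 to 78.8 CPM in untreated and from 37.2 to 85.7 CPM in aLAG3, with a log2 fold change of −0.05 and an SE of 0.17 (adjusted p = 0.9996 for both). The lowest Erap1 value rested on 11 counts, in library 10, and the interval of its fold change, 0.763 to 1.22, was wide.

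Nlrc5 was at 78.0, 82.4, 62.3, 51.2 and 73.2 CPM in untreated libraries and at 76.9, 85.1, 92.0, 70.8, 101.4 and 63.0 CPM in aLAG3 libraries. Libraries 7, 8 and 10 were above all untreated libraries, and library 4 was below all others, with 20 counts. The fitted log2 fold change was 0.21 with an SE of 0.15 (adjusted p = 0.9996), and its 95% interval, 0.938-fold to 1.43-fold, was the one that reached highest among the 10 genes. On log2 CPM the group difference was 0.23 over all libraries (exact permutation p = 0.184, two-sided) and 0.12 within barcode 9, where 3 against 3 libraries allow no p below 0.1. It was 0.68 within barcode 8, where the untreated side is library 4 alone. With the barcode as a covariate, the fitted log2 fold change was 0.26.

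**Figure D2:**
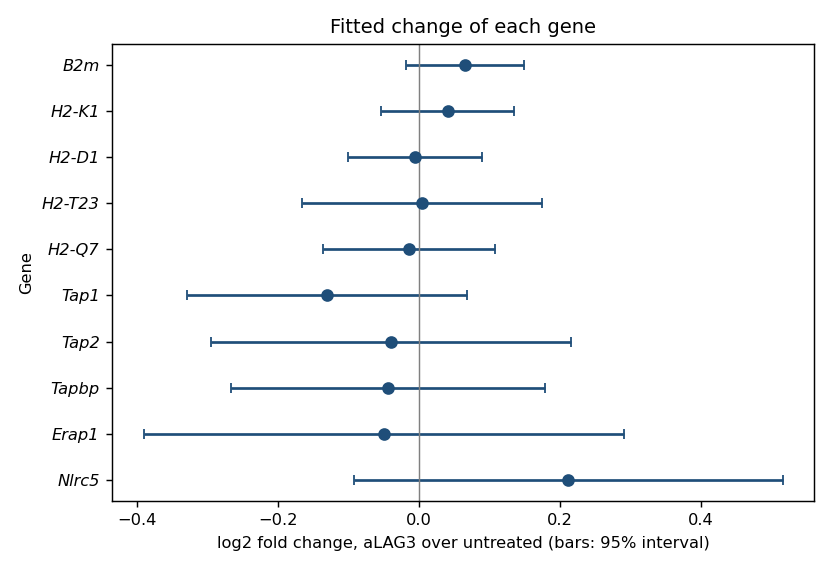
Fitted log2 fold change of aLAG3 over untreated for each gene (points) with its 95% interval (bars), from 5 untreated and 6 aLAG3 libraries. Every interval holds 0, and the intervals widen from B2m, H2-K1 and H2-D1 to Erap1 and Nlrc5, which have the fewest counts.

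The balance between partners was also compared, since a ratio within a library does not depend on its scaling. The ratio of H2-K1 to H2-D1 counts was 1.28 ± 0.0796 in untreated (SD, n = 5, range 1.20 to 1.41) and 1.34 ± 0.0842 in aLAG3 libraries (n = 6, range 1.22 to 1.41), with an exact permutation p of 0.320. On the log2 scale this difference was 0.06 over all libraries and 0.02 within barcode 9. The ratio of Tap1 to Tap2 was 1.63 ± 0.358 in untreated and 1.52 ± 0.262 in aLAG3 (exact permutation p = 0.556), and was highest in untreated library 2, at 2.24, and aLAG3 library 8, at 2.00. The ratio of H2-K1 to B2m was 1.05 ± 0.0851 in untreated and 1.04 ± 0.0715 in aLAG3 (exact permutation p = 0.773). All 3 differences were smaller than the spread between libraries, and all had an adjusted p of 0.773 over the 3.

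**Figure D3:**
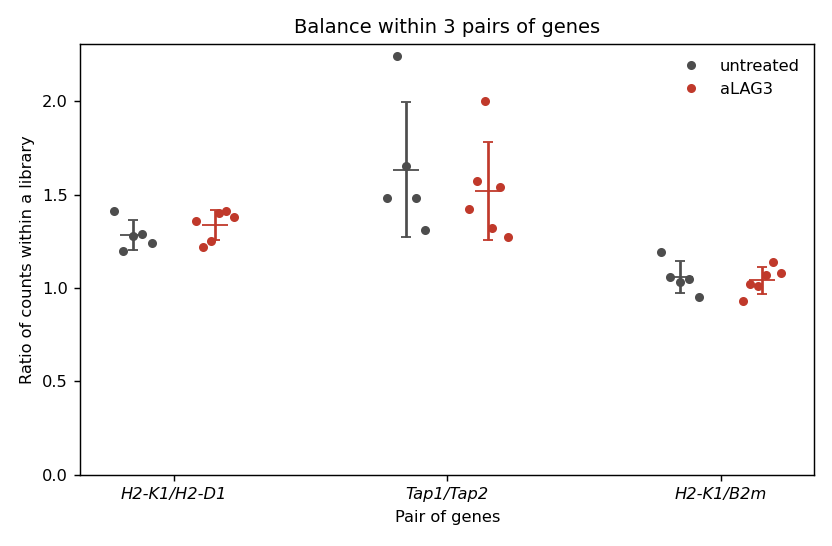
Ratio of counts within each library for 3 pairs of genes in untreated (grey) and aLAG3 (red) libraries, with the mean and SD of each group. The H2-K1 ratios are narrow and the Tap1 to Tap2 ratio is wide, from 1.27 to 2.24.

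Because NLRC5 is a transactivator of class I genes, its level was set against those of the other 9 genes over the 11 libraries. Pearson's r with Nlrc5 ran from −0.387 for Erap1 to 0.447 for H2-D1 over 9 relations, of which 6 were above 0, and no relation passed (permutation, smallest adjusted p = 0.684). The closest rank relation was with H2-D1, with a Spearman rho of 0.664 (permutation p = 0.0305, 0.275 adjusted over the 9), and its r was 0.613 without the 2 libraries farthest from the Nlrc5 median, 4 and 10, and 0.159 within barcode 9. For Tap2, r was −0.337, and −0.632 without those 2 libraries. Counting error was large here: the SD of Nlrc5 within groups was 0.255 on the log2 scale, beside 0.228 from counting alone.

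**Figure D4:**
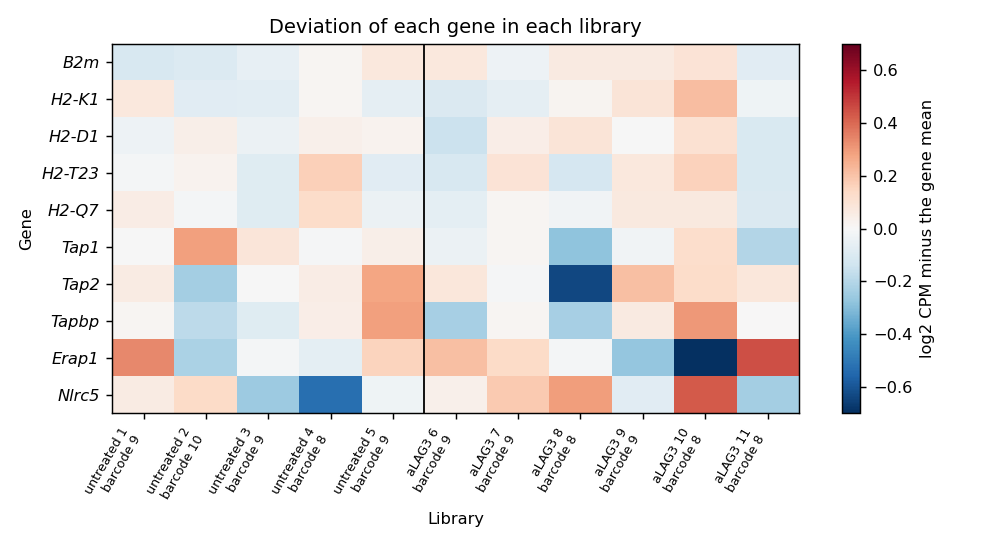
Log2 CPM of each gene in each library minus that gene's mean, with untreated libraries left and aLAG3 libraries right of the line and the primer barcode under each. Deviations are faint for B2m and the heavy chains and reach their extremes in Erap1 of library 10 and Tap2 of library 8, both barcode 8.

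The spread within groups differed between the genes. It was 0.0737 on the log2 scale for B2m, 0.0973 for H2-K1 and 0.0837 for H2-D1, where counting alone gave 0.0264, 0.0258 and 0.0295. For H2-Q7 it was 0.0759 beside 0.0477 from counting, and for H2-T23 0.116 beside 0.0835. For Tap1 the spread was 0.136 beside 0.130 from counting, for Tapbp 0.190 beside 0.134, for Tap2 0.260 beside 0.165 and for Erap1 0.334 beside 0.262. Over the 45 pairs of genes, Pearson's r had a median of 0.209 and ran from −0.669 to 0.870, and the points share library depth. The genes most like the mean of the 10 across the 11 libraries, among 1775 genes of at least 100 CPM, were Arf1 (r = 0.864), Zap70 (0.786), Gm7336 (0.785), Strap (0.783) and Ctsd (0.775). They were picked as the highest of those 1775 correlations, where high values can arise by the picking alone, and no test was run on them.

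Other genes of the pathway gave no call either. Of 10 tested rows among the other class I and class I-like genes, 0 passed, with 7 higher and 3 lower, and the smallest unadjusted p was that of Cd1d1, a lipid-presenting molecule, with a log2 fold change of 0.43 and an SE of 0.26. Of 17 loading and quality control genes, 0 passed, with 6 higher and 11 lower. The chaperone gene Calr had a log2 fold change of −0.15 with an SE of 0.11, and Sec61b, a subunit of the channel into the endoplasmic reticulum, −0.16 with an SE of 0.09. Of 6 genes of the immunoproteasome, its activator and its assembly, which serve the supply of peptides, 0 passed, and Psmb8 had a log2 fold change of 0.12 with an SE of 0.07.

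Of 19 tested regulators of class I transcription, 0 passed the adjusted threshold, with 10 higher and 9 lower and a median log2 fold change of 0.02. The 3 with the smallest unadjusted p were all lower. Rela, a subunit of NF-kappa B, which binds enhancer A, was at 108.1 ± 15.7 CPM in untreated and 93.2 ± 7.75 CPM in aLAG3 (log2 fold change −0.26, SE 0.12, unadjusted p = 0.0474, adjusted p = 0.9996 by edgeR). Jak1, a kinase of interferon receptors, had a log2 fold change of −0.16 with an SE of 0.08, and Irf8, an interferon regulatory factor, −0.18 with an SE of 0.11. Of the sort markers, Pdcd1, which encodes PD-1, had a log2 fold change of −0.24 with an SE of 0.10 (unadjusted p = 0.0267, adjusted p = 0.9996).

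MHC class II genes, which antigen-presenting cells express, were low and uneven. Of 5 tested, 0 passed the adjusted threshold, with 4 higher and 1 lower in aLAG3 and a median log2 fold change of 0.24. The 11 class II genes and regulator summed to 209.1 to 264.3 CPM of total counts in untreated and to 193.9 to 491.2 CPM in aLAG3 libraries, with libraries 7 and 10 highest, at 343 and 491 CPM. The 13 myeloid markers ran from 60.3 to 93.6 CPM in untreated and from 49.7 to 175.4 CPM in aLAG3, again with libraries 7 and 10 highest. The CD4 T cell markers summed to at most 24.4 CPM in any library, and the tumor and stromal markers, led by Pecam1, to between 139.9 and 214.2 CPM. Library 10 also had the highest level of 8 of the 10 pathway genes among the aLAG3 libraries, all but Tap2 and Erap1, and whether the RNA of other cells has a part in this was not tested. The study's gating plots for enriched T cells show a dump channel for CD11b, B220, NK1.1 and TER119. Without library 10, none of the 10 genes was called.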

How the data were processed

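Bulk RNA-seq was measured in sorted precursor exhausted CD8+ T cells of 5 untreated and 6 aLAG3 mice, grouped by the treatment label. The authors trimmed reads, mapped them to GRCm38 reference RNA and deposited raw read counts per gene symbol. The submitters' processing notes name cutadapt 4.1 and Bowtie2 2.4.5, and the study's methods name other versions. Handling of multi-mapped reads and of strand is not given in the sources used here.

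Counts were filtered with filterByExpr (10 counts at the median depth, 17.7 CPM, in 5 libraries, and 15 in all), normalized by TMM and tested with edgeR 4.0.16 (R 4.3.3) by the quasi-likelihood test with Benjamini-Hochberg adjustment over 6949 genes. Dispersions came from the 3 GLM functions named in the study's methods. estimateDisp was tried in their place and kept as an alternative, chosen after the data were seen, as was a fit with the index number of the titles. SEs were obtained from the F statistic, as |log2 fold change| over its root. CPM uses TMM-scaled library sizes of the tested genes, except marker sums, which use total counts. Log2 CPM has a prior count of 2. Ratios and single genes were compared by exact permutation of libraries, and correlations by 100000 permutations. DESeq2 1.42.0 was an alternative.

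All 10 pathway genes are reported. Of each other list, up to 3 genes with the smallest unadjusted p could be named, and the 5 genes of at least 100 CPM most correlated with the pathway mean. The genes and lists were chosen with earlier results of these data known. Shared sequence was counted in coding transcripts of GENCODE M21, an annotation of the same build in another release. The tests were also run on simulated data. Depth was 313524 to 1901374 counts per library, and floors cover counting error only. One marker list is not reported here.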

Additional observations from a re-analysis of the deposited data

Results flagged for a closer look

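Among 26 sets of values, the 10 genes and 3 ratios in each group, 1 value stood far from the others of its group, where chance, at about 1 in 20 sets, gives 1.3. Tap2 in aLAG3 library 8 was at 6.60 log2 CPM (94.4 CPM, 40 counts), while the other 5 aLAG3 libraries were between 147 and 171 CPM. The gap to the nearest library was 0.745 of the group's range. Its cause was not tested.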

How the results depend on the processing

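Calls were 0 over all genes and 0 of 10 pathway genes under DESeq2, the likelihood ratio test, RLE size factors, primer barcode as a covariate, barcode 9 alone, estimateDisp (added after seeing the data) and each left-out library. Without the filter on low counts, 7 genes were called (5830405F06Rik, B2m, Ccl1, Gzma, Nfkbia, Plac8 and mt-Co1), of which 1 was a pathway gene, B2m, at 0.09 (adjusted p = 0.0443), and the cause was not tested. With the title index as a covariate (added after seeing the data), which leaves aLAG3 library 10 against untreated libraries 2 and 3 to give the treatment, 16 genes were called, of which 1 was a pathway gene, H2-K1, at 0.293 (adjusted p = 0.0247). The median of the 10 genes was then 0.183, with H2-D1 at 0.113, H2-Q7 at 0.122, Tap2 at 0.207 and Tapbp at 0.423, all turned from below 0. Of the rest, B2m was at 0.166, H2-T23 at 0.200, Nlrc5 at 0.571, Tap1 at −0.0367 and Erap1 at −0.660. The median log2 fold change of the 10 genes lay between −0.0351 and 0.0123 with each library left out. At an unadjusted p of 0.05, DESeq2 gave 163 genes and the likelihood ratio test 307.

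Signs of values near 0 turned. With RLE size factors H2-T23 was at −0.00037. Without the filter H2-D1 was at 0.0111. In barcode 9 alone H2-K1 was at −0.0184 and H2-Q7 at 0.0235. With heavy chain rows summed, the value standing for H2-D1 and H2-Q7 was 0.0065. With libraries left out, H2-D1 ran from −0.0259 to 0.0227, H2-T23 from −0.0257 to 0.0456, H2-Q7 from −0.0446 to 0.0151, Tap2 from −0.0909 to 0.0382, Tapbp from −0.0943 to 0.0251 and Erap1 from −0.122 to 0.0606. B2m (0.0446 to 0.0933), H2-K1 (0.0026 to 0.0707), Tap1 (−0.157 to −0.0939) and Nlrc5 (0.149 to 0.284) kept their signs there. With libraries left out, the group difference of the log2 ratio ran from 0.0324 to 0.0901 for H2-K1 to H2-D1, from −0.175 to 0.0263 for Tap1 to Tap2 and from −0.0530 to 0.0269 for H2-K1 to B2m. In barcode 9 alone these differences were 0.0154, −0.0401 and −0.0699. Correlations with Nlrc5 that turned in barcode 9 were −0.0502 for B2m, 0.429 for H2-Q7, −0.579 for Tap1 and 0.507 for Erap1, and without libraries 4 and 10 they were 0.453 for H2-Q7, −0.0569 for Tap1 and −0.354 for Tapbp. No paired analysis was made, because the study's legend counts the untreated and aLAG3 groups as separate mice. Depth limits Erap1 and Nlrc5, with as few as 11 and 20 counts in a library.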
